A study of Homo sapiens with 3 samples.

Results

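The BCL2 family of apoptosis regulators was followed in 10 genes, taken by gene symbol from the family's known members. Earlier results of these data were known when they were chosen. All 10 were found among the 19220 genes of the count table. They were 4 pro-survival genes (BCL2, BCL2L1, BCL2L2 and MCL1), 2 effectors (BAX and BAK1) and 4 BH3-only genes (BID, BCL2L11, BBC3 and PMAIP1). All 10 cleared the count minimum (10 counts on average) and belonged to the 13676 genes that were compared.

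BCL2 family proteins decide at the outer mitochondrial membrane whether a cell enters the intrinsic pathway of apoptosis. BAX and BAK1 form the pores through which cytochrome c leaves the mitochondria, the pro-survival proteins hold them in check, and the BH3-only proteins, which are induced or activated by stress such as DNA damage, bind the pro-survival proteins or engage the effectors directly. Squamous carcinoma cells commonly depend on MCL1 and BCL-XL, the long product of BCL2L1, for survival under chemotherapy.

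RNA-seq libraries of 3 lines were examined, with 1 library per line. CAL27 is a human oral squamous cell carcinoma (OSCC) line, labelled as wild type and grown without drug. CAL27/5FU is its derivative labelled as resistant to 5-fluorouracil (5FU) and kept in 10 μM 5FU, and CAL27/OXA is the derivative labelled as resistant to oxaliplatin (OXA) and kept in 10 μM OXA. The 5FU line was raised by stepwise exposure to the drug over months, how the OXA line was raised is not given in the sources used here, and all 3 were grown in high-glucose DMEM with fetal bovine serum. Each resistant line is a single derived line held in its drug, so that resistance, drug exposure and descent of the line cannot be told apart.

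The libraries held 37297713 to 43455488 counts. With 1 library per line in use there was no replicate check, and no test or p-value is given. The interval after each ratio is the exact 95% Clopper-Pearson interval, for counting error only, and the limit for a call was 2-fold. Counting error was small at this depth: 74.6% of all compared genes in CAL27/5FU and 75.5% in CAL27/OXA had an interval that left out equality, so the intervals set a floor on the error and are no substitute for replicates. All 8 squamous epithelial markers examined were expressed in every library, with a summed level of 5965 FPKM (counts divided by gene length and by the total of the library) in the parental line, 1376 in CAL27/5FU and 1598 in the CAL27/OXA library. The keratin genes KRT5, KRT14, KRT6A and KRT17 were more than 2-fold lower in both resistant lines, while CDH1 and EPCAM stayed within 2-fold. DSG3 was also past 2-fold in both, but in CAL27/OXA it came to less with total counts and FPKM. TP63, the last of the 8, was more than 2-fold lower only for the 5FU line (log2 ratio -1.28). Its log2 ratio for the OXA line was 0.13. The 13 markers of other cell types summed to between 38.0 and 71.4 FPKM, of which CD68 made up 27.0 to 64.1. In each resistant line, 2 of the 9 that were compared were more than 2-fold higher and 1 lower. Of all compared genes, 8.46% were higher and 6.72% lower in CAL27/5FU, and 6.54% and 9.28% in CAL27/OXA. The lower genes had few counts: VWF had 44 in CAL27 and 19 in CAL27/5FU, and MLANA 13 in CAL27 and 4 in CAL27/OXA. The endothelial gene CDH5 had 43, 338 and 163 counts and the collagen gene COL1A2 had 90, 300 and 212. Other markers of these cell types did not all rise: the collagen gene COL1A1 had 1387, 1068 and 1050 counts. The endothelial gene PECAM1 had 13, 6 and 11, and the fibroblast gene PDGFRB 35, 55 and 76. PTPRC, the pan-leukocyte marker, had 2, 0 and 0 counts. The part of these markers in the results was not tested. Fewer cells of one state and less RNA per cell cannot be told apart in such bulk libraries.

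Of the 4 members past 2-fold in a resistant line, 3 have a promoter stretch in RefSeq (GRCh38.p14) that holds no exonic base of GENCODE 29, and these are shown so that the members that moved can be read beside their sequence. The window of BCL2 begins, at its upstream end, within an annotated exon and is not printed. Capitals mark the matches to any of 6 motifs searched on both strands: the CRE half-site TGACGT, a forkhead motif GTAAACA, the GC box GGGCGG, the E-box CACGTG, the AP-1 motif TGANTCA and an ETS motif CCGGAAG. None of the printed matches overlapped another. The BCL2L1 and PMAIP1 stretches lie upstream of the annotated gene and the BCL2L11 stretch lies between the first and the next exon of a transcript that starts farther upstream, just before a RefSeq start.
BCL2L1 (chr20:31723990-31724213, minus strand): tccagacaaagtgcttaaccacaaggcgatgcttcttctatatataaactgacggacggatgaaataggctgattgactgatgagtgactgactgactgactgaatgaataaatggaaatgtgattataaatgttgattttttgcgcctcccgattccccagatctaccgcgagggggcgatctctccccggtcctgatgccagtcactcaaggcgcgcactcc
PMAIP1 (chr18:59899746-59899947, plus strand): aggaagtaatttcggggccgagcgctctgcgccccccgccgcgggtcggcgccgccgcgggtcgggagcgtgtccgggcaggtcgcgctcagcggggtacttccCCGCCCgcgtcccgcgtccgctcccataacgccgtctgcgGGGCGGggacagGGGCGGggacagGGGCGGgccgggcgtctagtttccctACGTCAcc
BCL2L11 (chr2:111120664-111120913, plus strand): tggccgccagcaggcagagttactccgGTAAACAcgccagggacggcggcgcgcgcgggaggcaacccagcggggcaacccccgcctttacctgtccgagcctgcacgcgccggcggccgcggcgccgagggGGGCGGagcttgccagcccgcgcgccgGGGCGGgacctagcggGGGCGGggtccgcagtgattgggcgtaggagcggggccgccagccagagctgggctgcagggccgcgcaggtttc

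In the PMAIP1 stretch, 4 GC boxes and a CRE half-site on the opposite strand (ACGTCA), at position -56 from the RefSeq start, were found. CRE half-sites occurred in 7.98% of all 35116 promoter windows of 300 bases. The BCL2L11 stretch held 3 GC boxes and a forkhead motif at position -223, which was present in 3.42% of the windows. GC boxes were common, with 45.0% of the windows holding one. None of the 6 motifs was found in the BCL2L1 stretch, although an ETS motif lay 9 bases past its RefSeq start, outside the stretch shown. Another RefSeq start of BCL2L1 (31722868), whose window is not printed, had a GC box at position -5. The GC content of the BCL2L1 stretch shown was 47.8% against 76.2% for PMAIP1 and 76.8% for BCL2L11. Windows of members that stayed within 2-fold also held matches: GC boxes in BAX, BAK1 and BID, E-boxes in BAX, BID and BBC3, and an AP-1 motif in BBC3. All these matches describe the letters of the windows, and no binding was measured.

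MCL1 led the order of the 10 members in every library. MCL1, a short-lived pro-survival protein, stood at 91.7 FPKM in the parental line, 87.4 in CAL27/5FU and 117.5 in the CAL27/OXA library, above 93.7% or more of the compared genes. BAX followed in CAL27 (52.5 FPKM) and in CAL27/5FU (58.4), whereas BCL2L1 took the place after MCL1 in CAL27/OXA. BCL2 was the lowest of the 10 members in each library, at 0.429, 0.975 and 1.11 FPKM. The other 8 members lay between 4.51 and 66.6 FPKM. Counting intervals overlapped for 2 pairs of neighbours in these orders, PMAIP1 and BCL2L11 in CAL27 and BID and BAK1 in CAL27/5FU. The order also depends on the gene length behind the FPKM values: that of BCL2 was 3850 bases, 32.7% of its exonic bases in GENCODE 29, and that of BAX 767 bases or 29.7%, against 99.2% for BAK1.

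**Figure D1:**
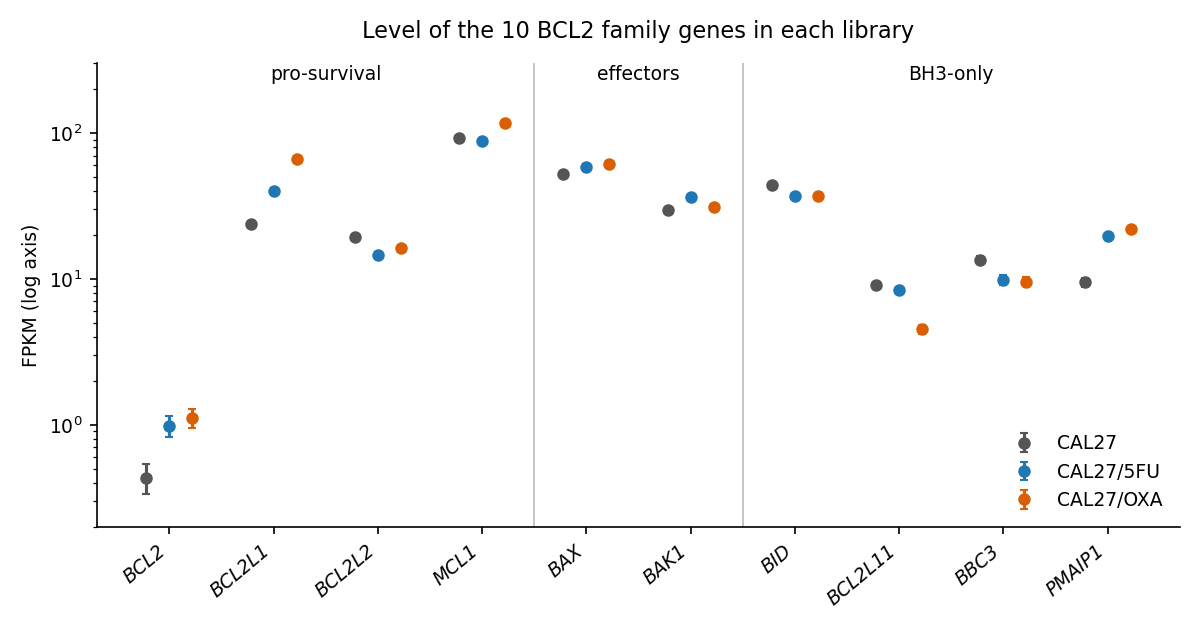
Level of each member in the 3 libraries, in FPKM on a log axis, with 1 point per library and bars for the exact 95% Poisson interval of the count. MCL1 is highest and BCL2 lowest in each library, and BCL2L1 climbs from 23.6 FPKM in CAL27 to 39.7 in CAL27/5FU and 66.6 in CAL27/OXA.

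BCL2L1 had the largest change of the 10 members in CAL27/OXA, though not in CAL27/5FU, where BCL2 and PMAIP1 were among those that differed more. It lies on the minus strand of chromosome 20 (GRCh38, 31664452 to 31723989). BCL2L1 had 2563 counts in the parental line, 3842 in CAL27/5FU and 7510 in the CAL27/OXA library, or 65.8, 98.2 and 169 CPM (counts scaled to library size). The level was thus lowest in the parental library and highest in that of the OXA line. In CAL27/OXA it rose by a log2 ratio of 1.36 over CAL27 (95% interval 1.30 to 1.43), so that the whole interval was past 2-fold, and it was at percentile 95.8 of all compared genes. In CAL27/5FU the log2 ratio was 0.58 (0.50 to 0.65), under 2-fold. Between the resistant lines BCL2L1 was 1.72-fold higher in CAL27/OXA (log2 ratio 0.78, 0.73 to 0.84). GENCODE 29 lists 9 transcripts of BCL2L1, and counts per gene do not separate the long pro-survival from the short pro-apoptotic product. Of the exonic bases of BCL2L1, 43.0% are also exonic in ABALON on the opposite strand. ABALON is not listed in the count table, and without stated strandedness its reads cannot be told apart from those of BCL2L1.

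BCL2, the founding pro-survival member, lies on chromosome 18 (63123346 to 63320128, minus strand). It had 69 counts in the parental line, 140 in CAL27/5FU and 186 in the CAL27/OXA library (1.77, 3.58 and 4.19 CPM). Both resistant lines were above CAL27, and the interval of their own difference included 0 (log2 ratio 0.22, -0.10 to 0.55). Against CAL27, the log2 ratio was 1.22 in CAL27/OXA (0.84 to 1.66) and 0.99 in CAL27/5FU (0.59 to 1.45). The 5FU value sat at the 2-fold boundary and went past it with total counts (1.16). BCL2 was low in every library, and on FPKM values with a pseudocount of 1 its log2 ratio shrank to 0.47 for the 5FU line and 0.56 for the OXA line.

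The other pro-survival genes stayed within 2-fold. BCL2L2, which encodes BCL-W, had 2919, 1934 and 2527 counts in CAL27, CAL27/5FU and CAL27/OXA, a log2 ratio of -0.60 (-0.68 to -0.52) for CAL27/5FU and -0.40 (-0.47 to -0.32) for CAL27/OXA. It shares 19.4% of its exonic bases with the readthrough gene BCL2L2-PABPN1, which has its own row in the table, so the division of reads between them is uncertain. MCL1 had 14749, 12548 and 19657 counts. Its log2 ratio was -0.24 (-0.27 to -0.21) in CAL27/5FU and 0.22 (0.19 to 0.26) in CAL27/OXA, and the CAL27/OXA library was 1.38-fold above that of CAL27/5FU.

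BAX and BAK1, the pore-forming effectors, were the members closest to their CAL27 level in both resistant lines under this scaling. With total counts, MCL1 and BCL2L11 were closer in CAL27/5FU, and between the resistant lines BBC3 and BID differed less. BAX (chromosome 19, 48954815 to 48961798) had 1684 counts in the parental line, 1672 in CAL27/5FU and 2040 in the CAL27/OXA library. Its log2 ratio to CAL27 was -0.02 (-0.12 to 0.08) in CAL27/5FU, a sign that turned positive with total counts, the upper quartile and both FPKM settings, and 0.09 (-0.01 to 0.18) in CAL27/OXA. BAK1 had 2716, 2958 and 2970 counts. It was at 0.12 (0.04 to 0.19) in CAL27/5FU and -0.06 (-0.14 to 0.02) in CAL27/OXA, where the sign turned positive with total counts and both FPKM settings. Relative to CAL27, the bound farthest from 0 in these intervals was 0.19 on the log2 scale, for BAK1 in CAL27/5FU.

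Among the BH3-only genes, PMAIP1 and BCL2L11 moved in opposite directions in CAL27/OXA. PMAIP1 encodes NOXA, which binds MCL1 preferentially, and lies on chromosome 18 (59899948 to 59904306). PMAIP1 had 765 counts in the parental line, 1411 in CAL27/5FU and 1839 in the CAL27/OXA library (19.6, 36.0 and 41.4 CPM). Both resistant lines were above the parental one. It rose past 2-fold in CAL27/OXA, with a log2 ratio of 1.07 (0.95 to 1.20), and was at 0.87 (0.75 to 1.01) in CAL27/5FU, which became 1.05 with total counts.

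BCL2L11 encodes BIM, which binds all pro-survival members, and lies on chromosome 2 (111119378 to 111168447). It had 1707 counts in the parental line, 1422 in CAL27/5FU and 889 in the CAL27/OXA library (43.8, 36.3 and 20.0 CPM). In CAL27/OXA it fell by 1.13 on the log2 scale (interval -1.25 to -1.01), a 2.19-fold lower level that came to less than 2-fold with total counts and with both FPKM settings. In CAL27/5FU its log2 ratio was -0.27 (-0.37 to -0.17). The direct ratio of CAL27/OXA to CAL27/5FU was -0.86 (-0.98 to -0.74). Of its exonic bases, 10.9% are shared with MIR4435-2HG on the opposite strand, which is not in the count table. The 25 transcripts of BCL2L11 listed in GENCODE 29, which include several BIM forms, were counted as 1 gene.

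BBC3 and BID were lower in both resistant libraries without passing 2-fold. BBC3, which encodes PUMA, had 927, 604 and 683 counts in CAL27, CAL27/5FU and CAL27/OXA, with log2 ratios of -0.62 (-0.78 to -0.48) in CAL27/5FU and -0.63 (-0.77 to -0.49) in CAL27/OXA. BBC3 thus had nearly the same ratio in both, with a direct log2 ratio between them of -0.01 (-0.17 to 0.16). BID, which links caspase-8 to the mitochondria once cleaved, had 3949, 2960 and 3473 counts and log2 ratios of -0.42 (-0.49 to -0.35) and -0.37 (-0.44 to -0.31).

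**Figure D2:**
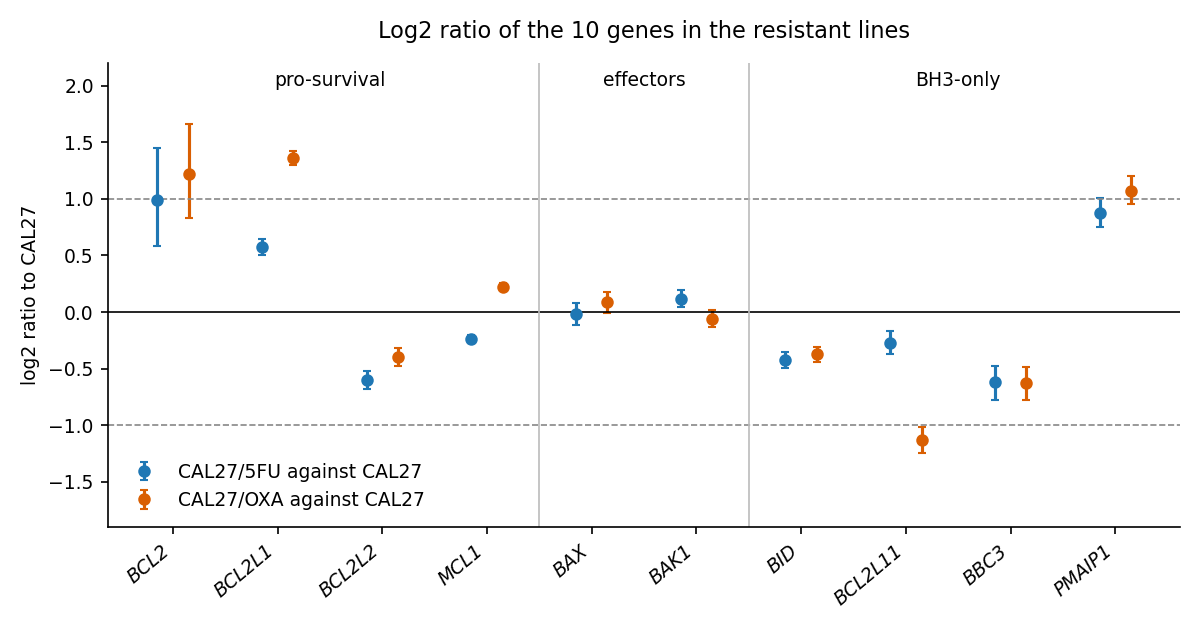
Log2 ratio of each member to the shared CAL27 library, for both resistant lines, with exact 95% Clopper-Pearson intervals for counting error and dashed lines at 2-fold. BCL2, BCL2L1 and PMAIP1 lie above and BCL2L11 below the 2-fold lines in CAL27/OXA, and BAX and BAK1 lie near 0 in both lines.

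In CAL27/5FU, 0 of the 10 members passed 2-fold upwards and 0 downwards, beside 8.46% and 6.72% of all compared genes, or 15.2% in either direction. The median log2 ratio of the members was -0.13, beside -0.0035 for all genes, and the median absolute log2 ratio was 0.50 beside 0.33. In CAL27/OXA, 3 members (BCL2, BCL2L1 and PMAIP1) passed it upwards and 1 (BCL2L11) downwards, 4 of 10 in all, beside 6.54% and 9.28% of all compared genes, or 15.8% in either direction. The median there was 0.013 beside 0.0055 for all genes, with a median absolute log2 ratio of 0.51 beside 0.34. By role, the 4 pro-survival genes had a median of 0.72 in CAL27/OXA, over values from -0.40 to 1.36. The 4 BH3-only genes had a median of -0.50, over values from -1.13 to 1.07. In CAL27/5FU these medians were 0.17 (values from -0.60 to 0.99) and -0.35 (-0.62 to 0.87). Each of these roles thus held genes going both ways in both lines. The median of the 2 effectors was 0.013 in CAL27/OXA and 0.049 in CAL27/5FU. Directly between the resistant lines, 0 members passed 2-fold in either direction, beside 4.18% of all genes upwards, 8.38% downwards and 12.6% together. With total counts in place of the scaling factors, the median of all genes itself moved to 0.17 for the 5FU line and 0.14 for the OXA line. The comparisons share libraries, and the values of the members are set side by side for that reason and not counted as repeats.

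Summed by role, the 4 pro-survival genes came to 135 FPKM in the parental line, 143 in CAL27/5FU and 201 in the CAL27/OXA library, the last 1.49 times the parental sum. The share of BCL2L1 in this sum was 17.5%, 27.9% and 33.1% in the 3 libraries, while that of MCL1 was 67.8%, 61.3% and 58.3%. BCL2 never made up more than 0.684%. The sum of BAX and BAK1 was 82.2, 94.6 and 92.4 FPKM, and that of the BH3-only genes 75.7, 74.6 and 73.0. Within the nearly level BH3-only sum, the share of PMAIP1 went from 12.5% in CAL27 to 26.2% in CAL27/5FU and 29.96% in CAL27/OXA, and that of BCL2L11 was 11.9%, 11.3% and 6.18%. FPKM values are scaled by total counts, so these sums carry that shift.

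**Figure D3:**
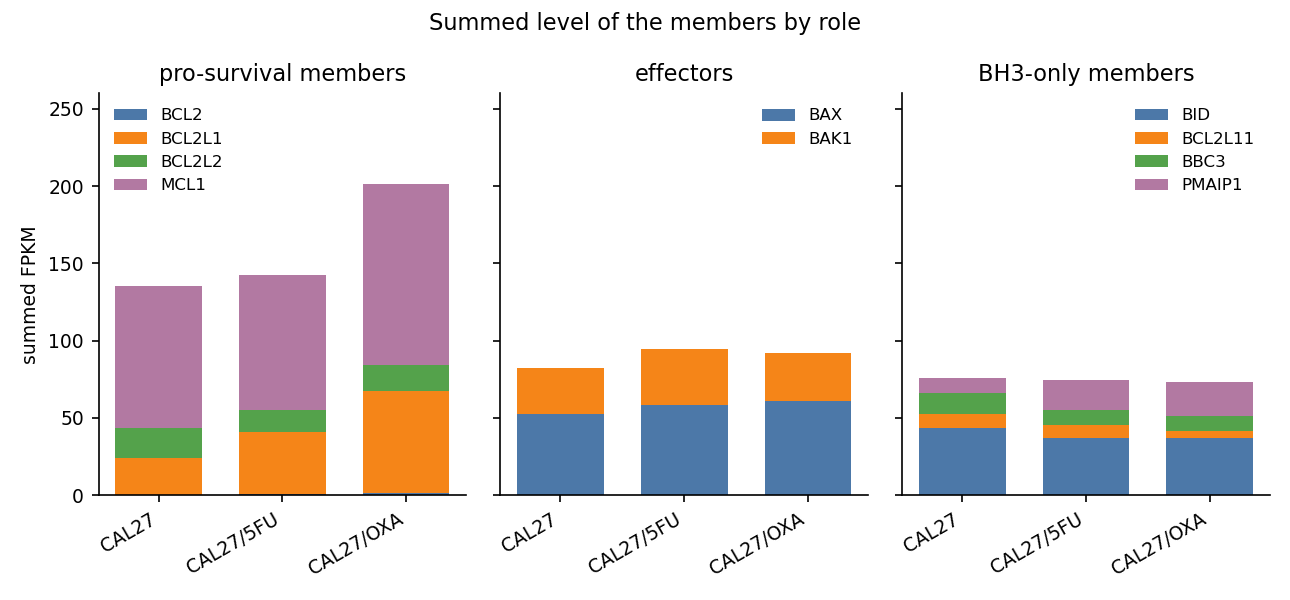
Summed FPKM of the members of each role in the 3 libraries, with the gene of each segment in colour and the axis from 0. The pro-survival sum is 135, 143 and 201 FPKM in CAL27, CAL27/5FU and CAL27/OXA, and the BH3-only sum stays between 73.0 and 75.7.

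Ratios of 2 genes within a library need no scaling between libraries. The ratio of BCL2 to BAX, a classical index of the apoptotic threshold, was 0.0410 in counts in the parental line (95% interval 0.0317 to 0.0521), 0.0837 in CAL27/5FU (0.0700 to 0.0995) and 0.0912 in the CAL27/OXA library (0.0780 to 0.106). It was therefore 2.04 times the parental value in CAL27/5FU (1.51 to 2.79) and 2.23 times in CAL27/OXA (1.67 to 3.0). The ratio of BCL2L1 to BAX was 1.52, 2.30 and 3.68, a change of 1.51-fold (1.39 to 1.64) and 2.42-fold (2.23 to 2.62). Another pair of ratios was chosen after the values had been seen, for partners that bind each other. BCL2L1 to BCL2L11 stood at 1.501, 2.70 and 8.45, which was 1.799-fold (1.65 to 1.96) higher in CAL27/5FU and 5.63-fold (5.12 to 6.18) higher in CAL27/OXA. MCL1 to PMAIP1 was 19.3 in the parental line, 8.89 in CAL27/5FU and 10.7 in the CAL27/OXA library, a 2.17-fold and a 1.804-fold lower ratio.

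The rest of the family was read from 13 further genes, of which 11 were compared and BCL2L15 and HRK were under the count minimum. BNIP3, a mitophagy receptor named here after its values were seen, stood above MCL1 in every library, at 278.7, 184.0 and 163.6 FPKM. In CAL27/OXA, 0 of the 11 passed 2-fold upwards and 4 downwards, beside 6.54% and 9.28% of all compared genes, at a median log2 ratio of -0.82 beside 0.0055. BMF alone still did so, 1 of the 11, on FPKM values with a pseudocount of 1. BMF, a BH3-only gene whose product responds to loss of attachment, had the largest change, with 1642 counts in the parental line, 1591 in CAL27/5FU and 112 in the CAL27/OXA library. The BMF level was alike in the first pair of libraries (log2 ratio -0.05, -0.15 to 0.05) and fell by 4.04 on the log2 scale in CAL27/OXA (-4.35 to -3.79). BIK, another BH3-only gene, had 728, 790 and 366 counts and a log2 ratio of -1.18 (-1.37 to -0.998) in CAL27/OXA. BCL2L10 fell from 57 to 24 counts there (-1.36, -2.19 to -0.73), and BCL2L14 had 32 counts in the parental line, 83 in CAL27/5FU and 2 in the CAL27/OXA library, where the interval of its log2 ratio ran from -7.30 to -2.22. In CAL27/5FU, 2 of the 11 passed it upwards and 1 downwards, beside 8.46% and 6.72% of all compared genes, with a median of -0.05 beside -0.0035. BCL2A1, a pro-survival gene induced by NF-kB, rose from 55 to 177 counts (log2 ratio 1.65, 1.24 to 2.14), and BCL2L14 was at 1.32 (0.76 to 2.004), which came to less than 2-fold on FPKM values with a pseudocount of 1. BNIP3L, a mitophagy receptor related to the family, fell from 5957 to 2938 counts (log2 ratio -1.03, -1.09 to -0.96), a call that was lost with total counts, the upper quartile and FPKM. BCL2L15 had 0, 6 and 11 counts and HRK 2, 0 and 0, too few for a fold to be given.

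Downstream of the mitochondria, 0 of 13 genes of the apoptosome and caspase list were past 2-fold in CAL27/5FU, beside 15.2% of all compared genes. In CAL27/OXA the list held 0 higher genes and 1 lower gene, CASP10, with 1683 counts in CAL27 and 846 in CAL27/OXA (log2 ratio -1.18, -1.30 to -1.06), which was under 2-fold on FPKM values with a pseudocount of 1. That is 1 of 13 genes, near the 9.28% of all compared genes that were lower in this line. CYCS, which encodes cytochrome c, was at -0.00065 (-0.03 to 0.03) in CAL27/5FU, positive with 5 of 7 alternatives, and 0.14 (0.11 to 0.17) in CAL27/OXA. APAF1, the scaffold of the apoptosome, was at 0.15 and 0.51. The initiator caspase gene CASP9 had log2 ratios of 0.25 and 0.12. Of the 7 inhibitors of apoptosis, XIAP, the direct caspase inhibitor, was at 0.12 in CAL27/5FU and -0.03 in CAL27/OXA, a sign that turned positive with total counts and FPKM. BIRC3, an NF-kB target, had 8495, 13004 and 4622 counts in CAL27, CAL27/5FU and CAL27/OXA. Its log2 ratio was 0.61 (0.57 to 0.65) in CAL27/5FU and -1.07 (-1.12 to -1.02) in CAL27/OXA, where it was the 1 gene of the 7 past 2-fold, beside 15.8% of all compared genes, and came to less with total counts and FPKM. BIRC7 (6 and 18 counts) and NAIP (13 and 5 counts) were past 2-fold in CAL27/5FU on few counts, at 1.33 (0.18 to 3.2) and -1.11 (-3.23 to 0.19). The call of BIRC7 was lost on FPKM values with a pseudocount of 1, and that of NAIP with total counts, a prior count of 5 and both FPKM settings.

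On the death receptor route, 10 of 12 genes were compared. None of these 10 was past 2-fold in CAL27/5FU, beside 15.2% of all compared genes. In CAL27/OXA, 1 was lower: TNFSF10, which encodes the death ligand TRAIL, had 3847, 3141 and 1057 counts and fell by 2.05 on the log2 scale (-2.15 to -1.95). That is 1 of 10 genes, near the 9.28% of all compared genes. Of 17 upstream regulators and partners, 0 were more than 2-fold higher in either line and 1 was lower in each, beside 6.72% of all compared genes lower in CAL27/5FU and 9.28% in CAL27/OXA. TP63, a transcription factor of squamous epithelium, fell in CAL27/5FU, with 23645 counts in CAL27 and 9759 in CAL27/5FU (log2 ratio -1.28, -1.32 to -1.25) and 0.13 in CAL27/OXA. TP73 was lower in CAL27/OXA (-1.11, -1.26 to -0.97), though by less than 2-fold with total counts and FPKM. FOXO3, whose product activates BCL2L11, and DDIT3 of the same list were named after their values were seen. FOXO3 was at -0.68 in CAL27/5FU and -0.96 in CAL27/OXA, and DDIT3 went the other way, at 0.29 and 0.76. A part of either gene in the BCL2L11 values was not tested.

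**Figure D4:**
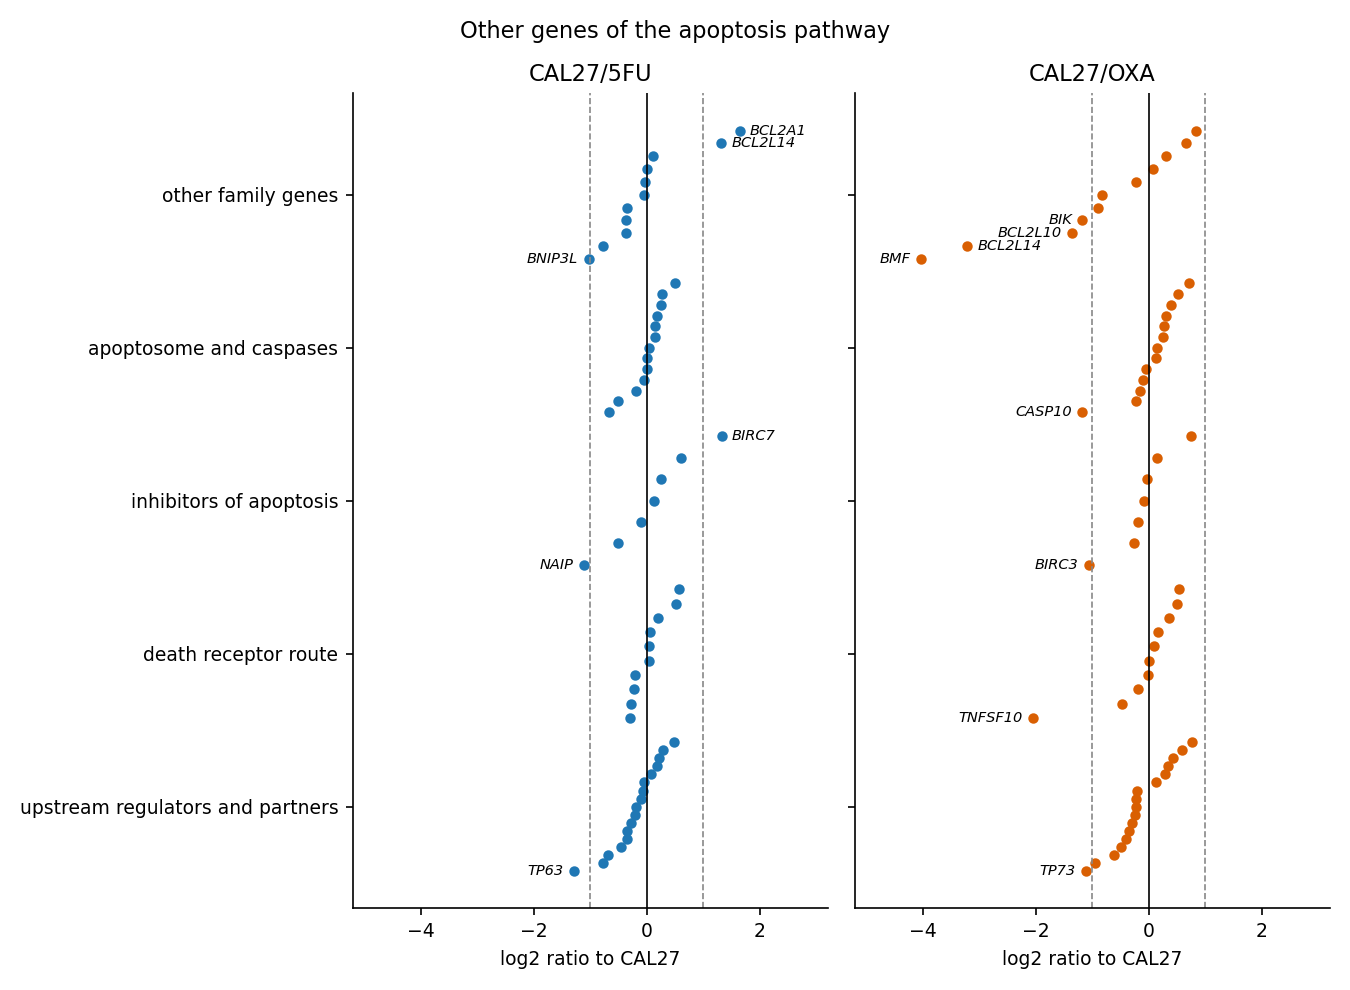
Log2 ratio to CAL27 of the compared genes of 5 further lists of the apoptosis pathway, with 1 point per gene, CAL27/5FU on the left and CAL27/OXA on the right, and dashed lines at 2-fold. Genes past 2-fold are named, and BMF, BCL2L14 and TNFSF10 lie farthest to the left in CAL27/OXA.

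Neighbours were the 10 nearest compared genes, 5 on each side in chromosome order, with no limit on distance. Around BCL2L1 their median log2 ratio was -0.09 in CAL27/OXA. None of them was more than 2-fold higher and 1 was lower, beside 6.54% and 9.28% of all compared genes. Around BCL2 the median was -0.38 and around PMAIP1, which lies on the same chromosome and shares 5 of these neighbours, -0.36, against 1.22 and 1.07 for the members themselves, although 1 neighbour of PMAIP1 was at 2.05. The neighbours of BCL2L11 ran from -4.19 to 2.86 in CAL27/OXA, with a median of 0.01. Of the 10 neighbours of BCL2, 0 were more than 2-fold higher and 4 lower in CAL27/OXA. For PMAIP1 these numbers were 1 and 2, and for BCL2L11 also 1 and 2, beside the same 6.54% and 9.28% of all compared genes. In CAL27/5FU the medians were 0.09 around BCL2L1, -0.10 around BCL2, 0.10 around PMAIP1 and 0.29 around BCL2L11.

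Likeness of pattern was measured by the distance over both log2 ratios to CAL27, over 3 libraries and among the 11541 genes averaging 100 counts or more. C11orf68 (0.63 in CAL27/5FU and 1.34 in CAL27/OXA), PLEKHG4 and ZNF620 were nearest to BCL2L1, PKIB, NEDD4 and TMEM56 to BCL2, and ADAMTSL4, RAB3A and CHMP1A to BCL2L11. Within a distance of 0.2 there were 23, 39 and 63 genes around these members. With so few libraries, such likeness describes the values alone.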

How the data were processed

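CAL27, CAL27/5FU and CAL27/OXA cells were profiled by RNA-seq, and 1 library of each was analysed. Total RNA was extracted with TRIzol and libraries were made with a NEBNext Ultra RNA kit. The authors deposited raw counts of reads for 19220 gene symbols and, for 19225 symbols, FPKM values, which follow the total counts and a fixed gene length. The submitters' processing notes name HISAT2 2.0.5, CASAVA 1.8 and GRCh38. The counting tool, annotation and strandedness are not given in the sources used here. Another 3 columns of per-sample values in each table have names that read as a further sample of each line, match no sample listed here and were not used here, so the lack of a replicate check lies in the columns used.

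Library sizes were adjusted by TMM (edgeR 4.0.16, R 4.3.3), and log2 CPM was computed after adding a prior count of 2. The 13676 genes averaging 10 counts or more were compared, with 2-fold as the limit for a call. Intervals are exact (scipy 1.17.1), at 95%. The scripts were tested on simulated data. Groups came from the sample titles. The members, the lists and the rule for named genes (all members, listed genes past 2-fold, and a few genes whatever their value, of which CYCS, APAF1, CASP9 and XIAP are given and the others are not reported here) were chosen with earlier results of these data known. The lists came from general knowledge. Positions, overlaps and neighbours were taken from GENCODE 29 (GRCh38), which matched 18809 symbols, and promoter windows from RefSeq (GRCh38.p14), which held 8 of the 10 members. Alternatives were scaling by DESeq2 1.42.0, by total counts or by the upper quartile, other prior counts, filters and limits, and FPKM with pseudocounts of 1 and 0.1.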

Additional observations from a re-analysis of the deposited data

Results flagged for a closer look

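MCL1 moved in opposite directions in the resistant lines. Its log2 ratio to CAL27 was -0.24 (95% interval -0.27 to -0.21) in CAL27/5FU and 0.22 (0.19 to 0.26) in CAL27/OXA, and the direct log2 ratio of CAL27/OXA to CAL27/5FU was 0.46 (0.43 to 0.50). Both ratios to CAL27 are under 2-fold and use the same CAL27 library. Their absolute size was at percentile 39.0 of all compared genes in CAL27/5FU and 36.5 in CAL27/OXA, so most genes differed more. With 1 library per line, the difference was not tested beyond counting error. The sign in each line was the same under all 7 alternatives of scaling, prior count and unit, with the ratio in CAL27/5FU closest to 0 at -0.07 on FPKM values with a pseudocount of 1.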

How the results depend on the processing

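Total counts in place of TMM factors moved the median log2 ratio of all genes to 0.17 in CAL27/5FU and 0.14 in CAL27/OXA, and the members moved with it. The median of the members became 0.0421 in CAL27/5FU and 0.15 in CAL27/OXA with total counts, 0.0421 and 0.15 on FPKM values with a pseudocount of 0.1, and 0.0412 and 0.14 with a pseudocount of 1. The members called higher in CAL27/5FU then numbered 2 (BCL2 and PMAIP1) with total counts and with FPKM and a pseudocount of 0.1. These settings called 10.5% and 8.54% of all compared genes higher. The number was 1 (BCL2) with the upper quartile and with a prior count of 0.5, beside 8.89% and 8.69% of all compared genes. The members called lower in CAL27/OXA numbered 0 with total counts and with either FPKM setting, since BCL2L11 came to less than 2-fold. Of all compared genes, 7.69% were lower there with total counts, and 3.52% and 6.65% on FPKM values with pseudocounts of 1 and 0.1. When the whole interval had to be past 2-fold, 1 member was higher in CAL27/OXA, beside 3.85% of all compared genes. At a limit of 1.5-fold, 2 members were higher and 2 lower in CAL27/5FU, beside 15.2% and 14.0% of all compared genes. In CAL27/OXA 2 were lower at this limit, beside 17.0% of all compared genes. In CAL27/OXA against CAL27/5FU, 1 was higher and 1 lower, beside 10.2% and 15.1%. No call of a member turned its direction under any alternative run. The alternatives moved the ratios by too little to turn one, so this is no check of the direction. Of all genes, the share called higher over the alternatives ranged from 3.68% to 15.2% in CAL27/5FU and from 2.69% to 14.1% in CAL27/OXA, and the share called lower from 2.27% to 14.0% and from 3.52% to 17.0%. With total counts, higher genes made up 67.2% of the genes called in CAL27/5FU, against 55.7% with TMM, and 51.1% in CAL27/OXA, against 41.3%. The change over CAL27 of each ratio of 2 genes had to be the same from FPKM values, since gene length and library total cancel in it. That agreement is therefore no check. The ratios themselves have other values in FPKM because gene length enters. Depth limits BCL2 most, and replicate error is unknown for every value.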
